A study of Mus musculus with 9 samples.

Results

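The comparison set pancreas of Glis3 mutant embryos against pancreas of wild-type (WT) embryos at embryonic day 15.5 (E15.5). It used 7 of the 9 samples of the series, chosen by the age and genotype in their labels, namely 3 WT and 4 mutant samples of the C57BL/6 strain. Per the series design, the mutants were homozygous for the Glis3zf allele. Each sample gave 100 ng of total RNA, which was labelled with biotin in an Affymetrix two-cycle protocol and hybridised to its own 1-colour array. The labels call the WT samples replicates 1 to 3 and the mutant samples replicates 2 to 5. They do not say whether each sample was 1 embryo or a pool, so the spread behind the p-values is that of these samples and could be technical. The E15.5 table lists intensities by Affymetrix probe set, a group of short probes read together for 1 transcript or a set of like transcripts. Of 45037 probe sets, 20273 (45.01%) had a value on all 7 arrays, and these are the probe sets compared here.

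Glis3 is a zinc finger transcription factor related to the Gli factors of Hedgehog signalling. It acts in the developing pancreas upstream of the insulin genes, and loss of GLIS3 function in people is a known cause of neonatal diabetes. At this stage of mouse development the pancreatic epithelium branches and parts into acinar tips, ducts and hormone-producing cells, with mesenchyme, vessels and nerves around it. The series asked how the Glis3 mutation alters beta cell development and insulin expression. The files used here do not pair the E15.5 probe sets with genes, so Glis3, the hormone genes and the markers of pancreas could not be read by name. Neither the targeted gene nor the labelled tissue was therefore checked at this age. All results below are given for probe sets.

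The arrays listed between 23701 and 25409 probe sets each. Over the probe sets common to all 7, the median deposited intensity lay between 722.7 and 893.5 on the WT arrays and between 587.0 and 702.4 on the mutant arrays. The genotypes thus did not overlap in overall brightness, and the arrays were brought to 1 distribution by quantile normalization before they were compared. Levels below are log2(intensity + 16) after that step, and differences are mutant minus WT on the same scale, which understates differences of dim probe sets. The number of arrays limits the precision, and the median standard error (SE) of a difference was 0.19.

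WT samples differed more from each other than mutant samples did. Between 1089 and 1725 probe sets were at least 2-fold apart in each of the 3 pairs of WT arrays. In the 6 pairs of mutant arrays the count was 197 to 864, with a median of 269.5. In the 12 pairs of a WT with a mutant array it was 325 to 1930, with a median of 827.5. No WT array was as close to another WT array as it was to its nearest mutant array. WT replicate 1 was 2-fold apart from mutant replicate 5 at 425 probe sets and from WT replicate 2 at 1089. WT replicate 3 was 2-fold apart from mutant replicate 3 at 325 probe sets and from WT replicate 1 at 1380. WT replicate 2 was the farthest from the rest, with 801 probe sets 2-fold apart from mutant replicate 5 and more from every other array. The correlation across probe sets (not independent of each other) was 0.947 to 0.960 between WT arrays and 0.968 to 0.987 between mutant arrays.

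**Figure D1:**
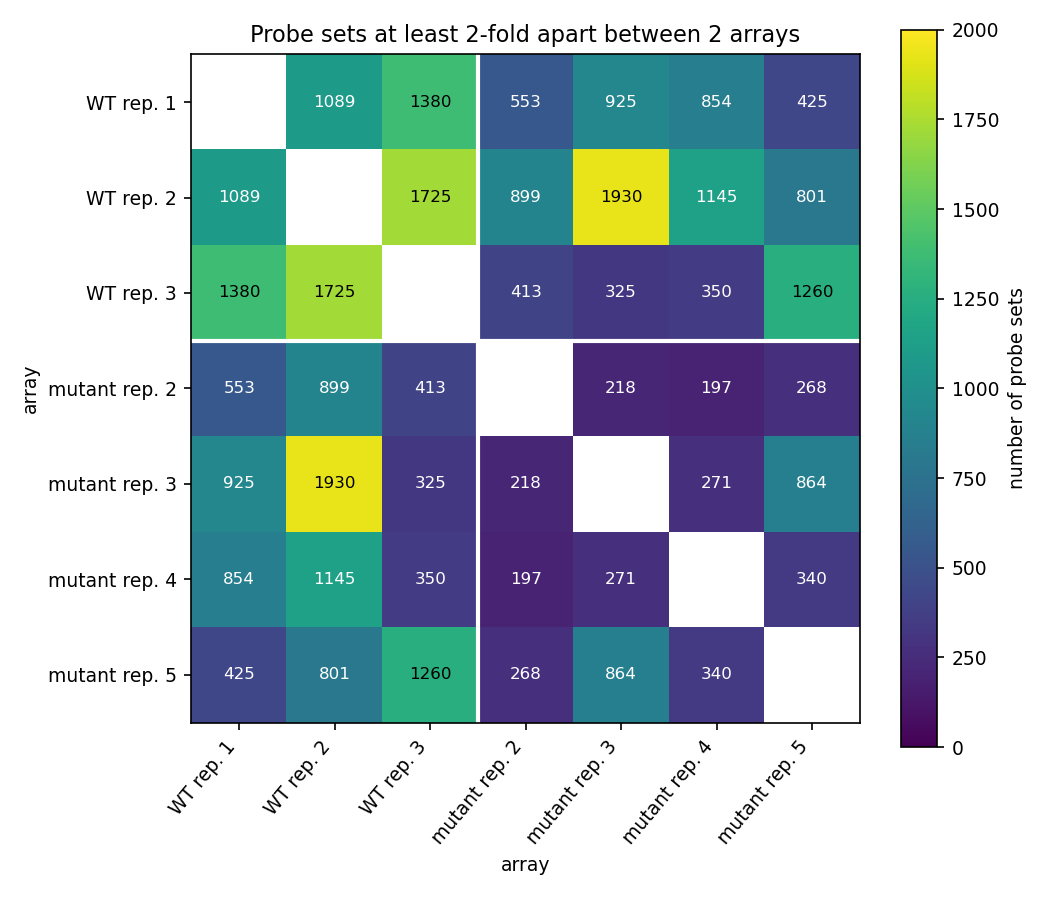
Number of probe sets at least 2-fold apart between every pair of the 7 E15.5 arrays, after quantile normalization, over 20273 probe sets. The colour gives the same number, and white lines part the 3 WT from the 4 mutant arrays. The WT pairs at the upper left hold 1089 to 1725 probe sets and the mutant pairs at the lower right 197 to 864.

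The main axis of variation did not part the genotypes. The first principal component held 42.1% of the variance, with WT replicate 2 at one end (-47.2) and WT replicate 3 at the other (35.6). WT replicate 1 stood at -19.1 on it, and the mutant arrays at 6.13, 30.5, 13.8 and -19.7 for replicates 2, 3, 4 and 5. The mutant arrays thus lay within the span of the WT arrays. The second component held 23.2% and set WT replicate 1 (33.8) against WT replicates 2 (-33.1) and 3 (-21.5), with the mutant arrays between -3.56 and 14.7.

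Per probe set, the median SD was 0.28 among the WT arrays and 0.19 among the mutant arrays, and WT had the larger of these for 71.0% of them. The gap was smallest among dim probe sets. In the lowest quintile of probe sets by mean level the median SD was 0.29 in WT and 0.25 in mutants, and in the highest quintile 0.22 and 0.12. A range of 4-fold or more within a genotype was found for 301 probe sets among the WT arrays and for 35 among the mutant arrays.

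**Figure D2:**
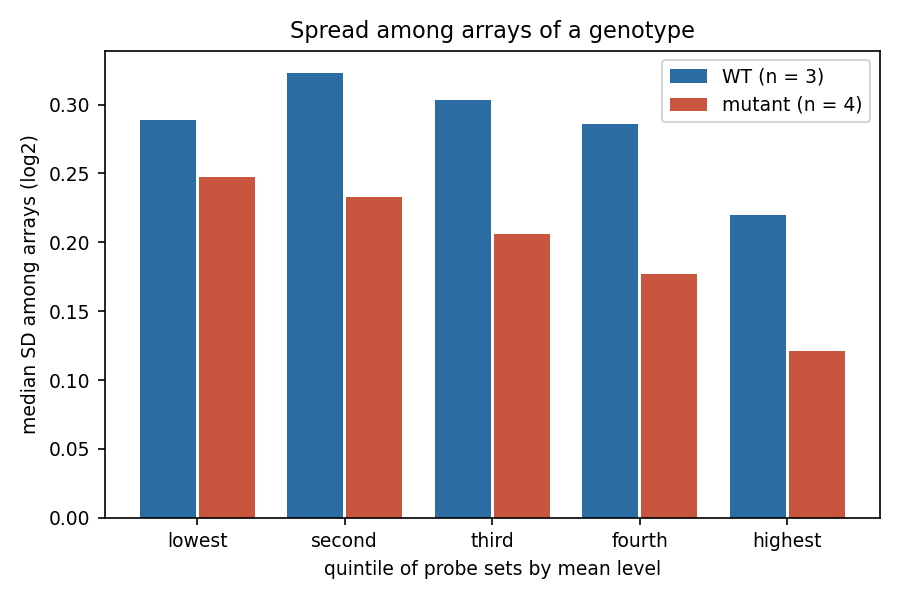
Median SD among the arrays of each genotype (log2 units) for 5 equal groups of probe sets ordered by mean level, with blue bars for WT (n = 3) and red bars for mutants (n = 4). WT bars are higher in every group, by 0.29 against 0.25 in the lowest quintile and 0.22 against 0.12 in the highest.

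No probe set passed limma at a Benjamini-Hochberg adjusted p of 0.05 (0 of 20273, 0%). The smallest limma adjusted p was 0.166. Before adjustment, 571 probe sets (2.82%) lay under 0.05, 241 higher (1.19%) and 330 lower (1.63%) in mutants, where evenly spread p-values would give 1014. Median centring in place of quantile normalization gave 327 higher and 269 lower. Without any normalization between arrays the median of all probe sets stood at -0.26, and 31 were higher and 1920 lower. The count of 571 became 1430 when WT replicate 1 was left out (848 higher, 582 lower), 1643 for WT replicate 3 (868 higher, 775 lower) and 364 for mutant replicate 4 (141 higher, 223 lower). Array weights gave 310 higher and 305 lower. The excess of lower probe sets at this threshold thus turned both with the scaling and with the WT arrays used. The adjusted count of 0 was not the same under every setting either. It was 6, all lower, without normalization between arrays, and 51 without WT replicate 3, 23 higher and 28 lower. Of these 51, the level on WT replicate 3 reached the range of the mutant arrays in 21 of the 23 higher and in 2 of the 28 lower. These probe sets were called without WT replicate 3, so separation on the other arrays was favoured by the choice. On all 7 arrays the genotypes stayed apart in 26 of the 28 lower and 2 of the 23 higher, which restates those counts. Over all probe sets tested, the genotypes were apart in 475 lower (2.34%) and 313 higher (1.54%).

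Probe set 1435064_a_at had the smallest unadjusted p of all. Its level was 13.42, 12.78 and 12.86 on WT replicates 1, 2 and 3. On mutant replicates 2, 3, 4 and 5 it was 11.58, 11.93, 11.70 and 11.62. Every mutant array lay below every WT array, with 0.85 between the nearest of them. The WT mean was 13.02 ± 0.35 (SD, n = 3) and the mutant mean 11.71 ± 0.16 (SD, n = 4). Mutants were lower by a factor of 2.49, a log2 difference of -1.31 (SE 0.17, limma adjusted p 0.166).

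Probe set 1432556_a_at, the second in that order, was dimmer. It stood at 10.04, 9.32 and 9.49 on WT replicates 1, 2 and 3, and at 7.62, 8.25, 7.59 and 7.91 on mutant replicates 2, 3, 4 and 5. WT replicate 1 was again the highest array, and 1.07 separated the genotypes. Mutants were lower by a factor of 3.42, a log2 difference of -1.77 (SE 0.23, limma adjusted p 0.166). In the deposited intensities, before normalization, it lay between 732.6 and 1066 in WT and between 176.1 and 245.7 in mutants.

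The smallest unadjusted p in the other direction belonged to 1427371_at. It stood at 7.83, 7.67 and 7.93 on WT replicates 1, 2 and 3. On mutant replicates 2 and 3 it was 9.77 and 9.76, and on mutant replicates 4 and 5 it was 9.19 and 9.01. The WT arrays lay close together and the mutant arrays spread more, with SDs of 0.13 (n = 3) and 0.39 (n = 4). Mutants were higher by a factor of 3.08, a log2 difference of 1.62 (SE 0.23, limma adjusted p 0.168). Deposited intensities were 224.1 to 238.0 in WT and 418.2 to 857.9 in mutants.

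Probe set 1419549_at was the next among those higher in mutants. It stood at 7.31, 7.89 and 7.95 on WT replicates 1, 2 and 3, and at 9.15, 9.17, 9.02 and 8.96 on mutant replicates 2, 3, 4 and 5. The mutant arrays were tight, with an SD of 0.10 (n = 4), and the genotypes were 1.01 apart at their nearest. Mutants were higher by a factor of 2.57, a log2 difference of 1.36 (SE 0.19, limma adjusted p 0.173). With quantile normalization and no block, none of these 4 probe sets passed the correction on all 7 arrays, and all of them did without WT replicate 3. Without normalization between arrays, 1435064_a_at and 1432556_a_at passed on all 7 arrays, each at a limma adjusted p of 0.0120. Each kept its sign under every alternative in which it was tested.

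**Figure D3:**
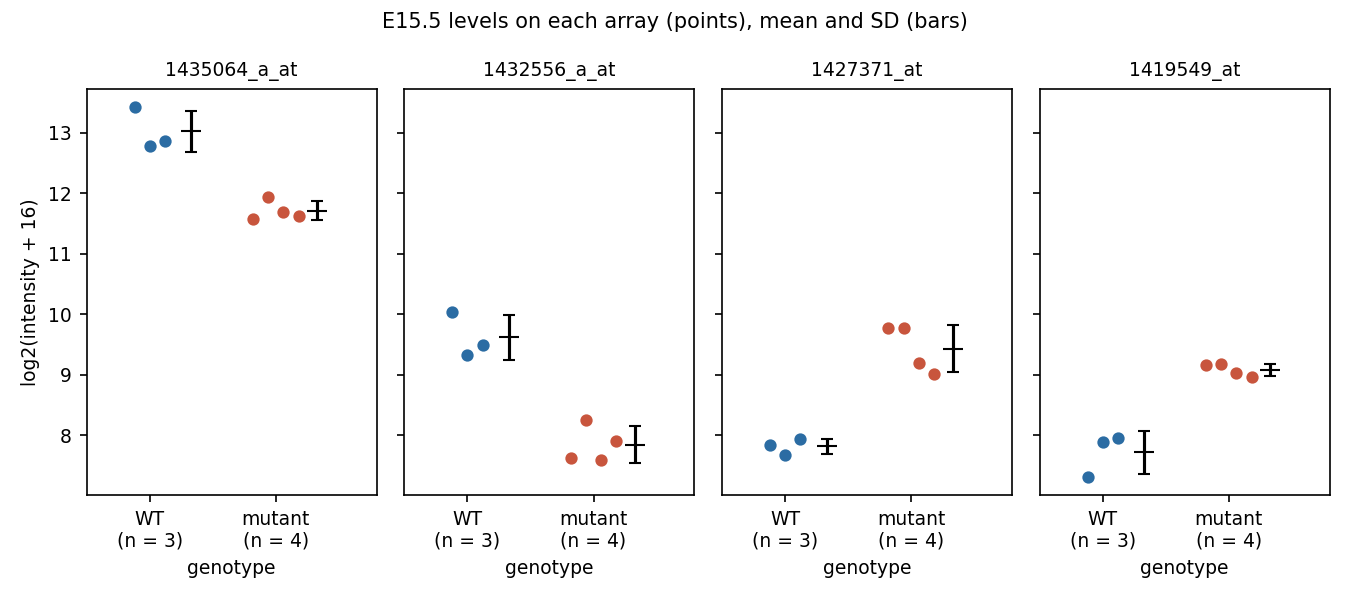
Level on each array (points, log2(intensity + 16) after quantile normalization) and mean with SD (black bars) of the 2 lower and 2 higher probe sets that rank first by p, for WT (blue, n = 3) and mutants (red, n = 4). In 1435064_a_at and 1432556_a_at every mutant point is below every WT point, and in 1427371_at and 1419549_at every mutant point is above.

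The 15 probe sets that rank first by p in each direction, the named 2 among them, were of different size in the 2 directions. Among the 15 with the smallest p that were lower in mutants, differences ran from -2.98 to -0.95 with a median of -1.62, and 13 were at least 2-fold. The 15 that were higher had differences of 0.58 to 1.62 with a median of 0.78, and 3 were at least 2-fold. WT and mutant arrays did not overlap in any of these probe sets, which the ranking by p favours. Limma adjusted p-values ran from 0.166 to 0.476 among the lower 15 and from 0.168 to 0.9999 among the higher 15. The median SD among the lower 15 was 0.46 in WT and 0.28 in mutants.

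A difference of 2-fold or more, counted from the means with no test, was found for 134 probe sets (0.661%), of which 75 (0.37%) were higher and 59 (0.291%) lower in mutants. Without normalization between arrays the split was 36 higher and 107 lower. In 53 of the 59 lower probe sets (0.261% of all tested) every mutant array was below every WT array. In 6 of the 75 higher ones (0.0296% of all tested) every mutant array was above every WT array. An unadjusted limma p under 0.05 was found for 330 lower (1.63%) and 241 higher (1.19%) of all probe sets tested. It was found for 57 of the 59 lower probe sets and 21 of the 75 higher. A 2-fold difference on the same arrays favours a small p, so these counts are no separate support. The median SD among the WT arrays was 0.69 for the lower and 1.66 for the higher probe sets, and among the mutant arrays 0.33 and 0.37. The contrast of 53 with 6 depended on the WT arrays used, and with fewer arrays in a genotype separation is easier to meet. It was 37 lower with 131 higher when WT replicate 1 was left out, 57 with 10 for WT replicate 2 and 88 with 171 for WT replicate 3. Leaving out mutant replicates 2, 3, 4 and 5 gave 55 with 7, 60 with 10, 51 with 10 and 53 with 26. The total of 134 was 334 without WT replicate 3.

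**Figure D4:**
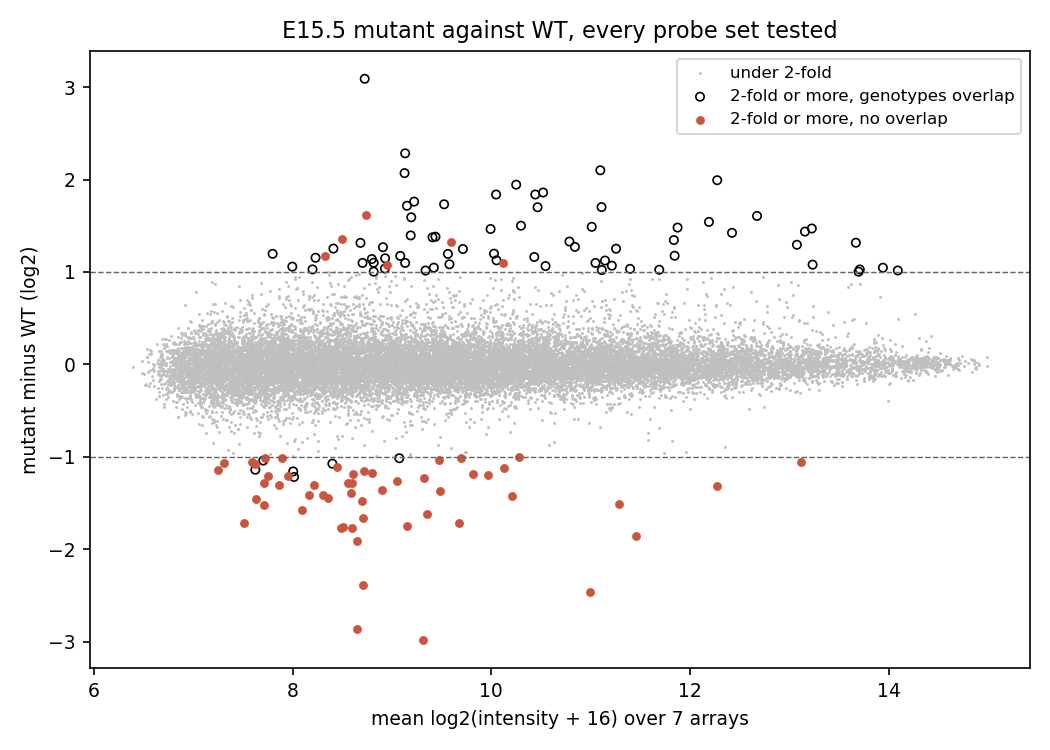
Difference between genotypes (mutant minus WT, log2) against mean level over the 7 arrays for all 20273 probe sets tested. Dashed lines mark 2-fold, red points are probe sets at least 2-fold apart whose genotypes do not overlap (53 lower, 6 higher), and open circles are those whose genotypes overlap (6 lower, 69 higher).

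The lower and the higher probe sets also differed in brightness. Of the 59 lower ones, 39 lay in the 2 lowest quintiles of mean level and 8 in the 2 highest. Of the 75 higher ones, 17 lay in the 2 lowest quintiles and 38 in the 2 highest. In bulk RNA, fewer cells of a type and less RNA per cell cannot be told apart, for these and all other probe sets.

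The largest differences with separate genotypes were lower in mutants. The first of these probe sets stood at 12.28, 10.48 and 10.29 on WT replicates 1, 2 and 3. On mutant replicates 2, 3, 4 and 5 it stood at 7.48, 8.14, 8.17 and 8.35. The genotypes lay 1.94 apart at their nearest, the widest such gap of all probe sets tested, and the WT arrays themselves spread over slightly more than that gap. Its means were 11.01 ± 1.10 (SD, n = 3) and 8.03 ± 0.38 (SD, n = 4), a difference of -2.98 (SE 0.44, 7.90-fold lower, limma adjusted p 0.199).

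The second had a WT mean of 10.28 ± 1.18 (SD, n = 3) and a mutant mean of 7.42 ± 0.70 (SD, n = 4), a difference of -2.86 (SE 0.53), limma adjusted p 0.476. The third was bright in WT, at 12.43, 13.09 and 11.68 on replicates 1, 2 and 3, and stood at 10.38, 9.62, 9.57 and 10.20 on mutant replicates 2, 3, 4 and 5. Its log2 difference was -2.46 (SE 0.33, 5.50-fold lower, limma adjusted p 0.166). The fourth and the fifth differed by -2.38 (SE 0.53) and -1.92 (SE 0.29). In the other direction the largest were the named 1427371_at and 1419549_at, followed by differences of 1.32 (SE 0.36), 1.17 (SE 0.26) and 1.09 (SE 0.44). A gap of 2-fold or more between the nearest WT and mutant arrays was found for 4 probe sets lower and 2 higher in mutants, and the 2 higher were 1427371_at and 1419549_at.

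Each of the 134 probe sets was sorted by which WT arrays reached the range of the mutant arrays, a sorting chosen after the values were seen. In the 53 lower probe sets with no such array, median levels were 10.09, 9.62 and 9.01 on WT replicates 1, 2 and 3, and 8.06, 8.26, 7.68 and 8.01 on mutant replicates 2, 3, 4 and 5. The sorting itself places all 3 WT arrays above the mutants there. By median level WT replicate 3 was above them by the least. In the other 6 lower probe sets it was WT replicate 3 alone that reached the mutants.

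The 75 higher probe sets fell mostly into 2 patterns. In 33 of them WT replicate 1 alone reached the mutants. Their median level was 12.39 on WT replicate 1, 8.68 on WT replicate 2 and 10.96 on WT replicate 3, against 11.67 to 12.09 on the mutant arrays. In median level WT replicate 2 was thus far below every other array and WT replicate 3 moderately so. This did not hold for each probe set. One with a difference of 1.04 stood at 7.36 on WT replicate 2 and at 7.29 on WT replicate 3. In 28 others WT replicate 3 alone reached the mutants, with median levels of 7.66, 8.11 and 10.85 on WT replicates 1, 2 and 3, and 10.23, 9.66, 10.82 and 10.16 on mutant replicates 2, 3, 4 and 5. By these medians WT replicate 3 lay farther from the other WT arrays than the genotypes lay from each other, with a median difference of 1.22. The remaining 14 were the 6 with separate genotypes and 8 of other patterns. Over all probe sets, 29 had WT replicate 2 at least 4-fold below each of the other 6 arrays, and 25 of these were among the 75. No other array had such a probe set. The 75 higher and 59 lower probe sets became 35 and 60 when WT replicate 2 was left out, 158 and 39 for WT replicate 1, and 243 and 91 for WT replicate 3. The number of higher ones thus moved in opposite directions with the WT array left out.

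**Figure D5:**
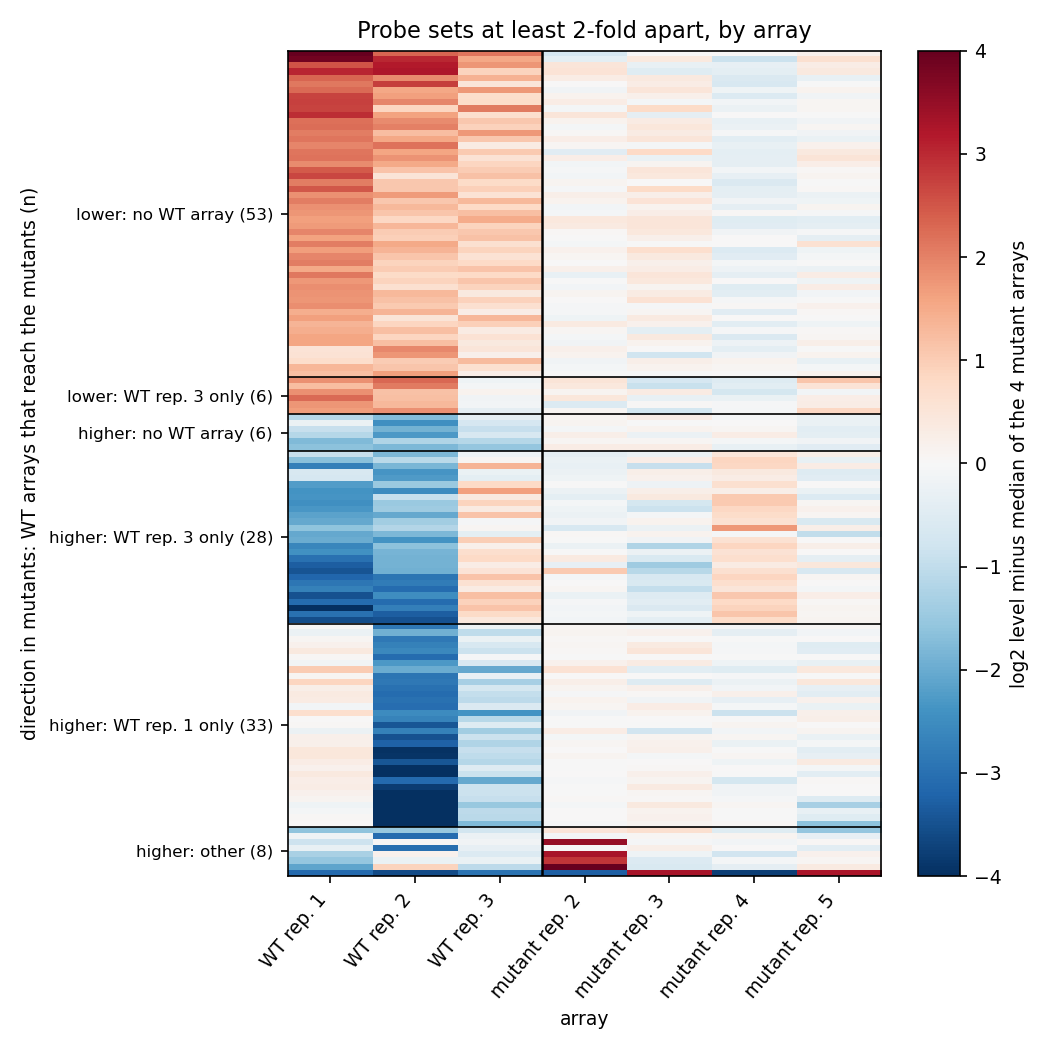
Level of each of the 134 probe sets at least 2-fold apart (rows) on each array (columns), as log2 level minus the median of the 4 mutant arrays, with red above and blue below it and colours capped at 4 either way. Rows are grouped by direction and by the WT arrays that reach the range of the mutants. The 53 lower rows at the top are red on all 3 WT arrays, as their grouping requires. Of the higher rows, 33 are blue mainly on WT replicate 2 and 28 on WT replicates 1 and 2.

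Small differences with separate genotypes were more even in direction. In all, the genotypes did not overlap in 788 probe sets (3.89%), 313 higher (1.54%) and 475 lower (2.34%). With so few arrays, some probe sets separate without any difference between genotypes, and the share expected from that was not computed. Median centring gave 387 higher and 386 lower, and no normalization gave 18 and 2637, so that split moved with the scaling. Most were small, with an absolute difference under 0.5 for 233 of the higher and 322 of the lower, and medians of 0.33 and -0.38. The count of 788 rose by construction when an array was left out. It was 3189, 1701 and 3410 without WT replicates 1, 2 and 3, and 1242, 1247 and 1449 without mutant replicates 2, 3 and 5.

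The fit needed a value on all 7 arrays, so the 9020 probe sets listed on only some arrays did not enter it. Of those listed in WT only, 1228 had a value on 1 array and 321 on 2. Of those listed in mutants only, 1095 had a value on 1 array, 300 on 2 and 85 on 3. All 3 WT arrays and no mutant array listed 47 probe sets (0.104% of the table), and all 4 mutant arrays and no WT array listed 18 (0.0400%). Every one of these was dim where listed, with mean intensities of 68.4 to 341.9 in the first set and 69.6 to 327.8 in the second, against a median of 475.9 for all listed values. The brightest of the 47 had intensities of 362.8, 319.1 and 343.9 on WT replicates 1, 2 and 3. Its level was close on all 3 arrays. The brightest of the 18 had 284.2, 507.7, 264.3 and 255.0 on mutant replicates 2, 3, 4 and 5. Both counts rose when an array was left out, since fewer arrays must then agree. They were 152 with 65, 98 with 69 and 212 with 98 without WT replicates 1, 2 and 3. Without mutant replicates 2, 3, 4 and 5 they were 83 with 37, 66 with 39, 86 with 34 and 85 with 47. In each case the count listed on every WT array and no mutant array was the larger. That held also with a mutant array left out, when both genotypes have 3 arrays. Listing was read before normalization, when every WT array had a higher median than every mutant array. Median intensity over the probe sets listed on all 7 arrays was 722.7 to 893.5 in WT and 587.0 to 702.4 in mutants. Whether brightness bears on the larger count of probe sets listed on every WT array and no mutant array was not tested. Of the whole table, 15744 probe sets (35.0%) had no value on any array.

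The ending of an Affymetrix identifier tells how specific a probe set is, and endings in _s_at and _x_at mark those that can bind transcripts of more than 1 gene. Among the 59 lower probe sets 48 ended in plain _at, 6 in _a_at, 5 in _s_at and 0 in _x_at. The 75 higher ones held 51, 11, 4 and 9. The share at least 2-fold apart was 0.693% for _at, 0.581% for _a_at, 0.602% for _s_at and 0.572% for _x_at. Leaving out _s_at and _x_at kept 54 of the lower and 62 of the higher probe sets.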

How the data were processed

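The E15.5 value table deposited by the authors holds 1-colour array intensities on a linear scale, judged from its values. How scanner values became that table, the caller and any scaling are not given in the sources used here. Empty cells have no level of their own. The values present for probe sets listed on 1 to 6 arrays had a median intensity of 102.5, against 695.9 for those listed on all 7. Probe sets listed on no array have no value to compare.

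Groups came from the sample titles. Probe sets with 7 values were normalized between arrays by quantiles, transformed as log2(value + 16) and tested in R 4.3.3 with limma 3.58.1 (lmFit, eBayes with a trend, Benjamini-Hochberg over 20273 probe sets, called at adjusted p under 0.05). The fit was tested on simulated data with independent noise and an equal SD in both genotypes. The arrays here differ in that, so the simulation does not give error rates for them. Named probe sets were the 2 per direction with the smallest unadjusted p, and for lack of a table of genes no others were named and no gene lists were applied. The comparison and its rules were chosen with earlier results of these data known. Alternatives changed the normalization, pseudocount, filter, empty cells, variance model, array weights, block, probe set class and arrays. PND3 arrays were not used.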

Additional observations from a re-analysis of the deposited data

Results flagged for a closer look

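Mutant replicate 2 stood apart from the other mutant arrays in the number of probe sets at least 4-fold above all other arrays. It had 9 such probe sets and the other mutant arrays 0 each, so that the gap between it and the next array, divided by the range of the 4, was 1. With the other counts tied at 0, that ratio is 1 for any count above 0, so the rate of about 1 in 20 groups that chance gives for continuous values does not apply. Of the 9 probe sets, 4 were among the 75 with 2-fold or higher levels in mutants.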

How the results depend on the processing

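Counts of probe sets with separate genotypes and the listing counts without 1 array were added after the data were seen. The 0 probe sets past the limma adjusted threshold became 6, all lower, without normalization between arrays and 8, 6 higher and 2 lower, with a replicate block, and 0 to 51 without 1 array. Replicate numbers 2 and 3 occur in both genotypes, with deviations correlated at 0.06 and 0.46, and these are too few to show that the numbers pair the samples. The 571 at unadjusted p became 1951 without normalization, 274 with the filter at the 40th percentile (fewer tested) and 1741 (1054 higher, 687 lower) with the replicate block, and 364 to 1643 without 1 array. The 134 at 2-fold became 78 with the filter and 250 (206 higher, 44 lower) with the replicate block, and 95 to 334 without 1 array. The 788 with separate genotypes became 2655 without normalization and 411 with the filter, and 1115 to 3410 without 1 array. The 53 lower and separate became 91 without normalization and 19 with the filter, and 37 to 88 without 1 array. The 6 higher and separate became 2, 3, 10 and 11 without normalization, with the filter, with pseudocount 1 and with probe sets listed on at least 2 WT and 3 mutant arrays, and 7 to 171 without 1 array. Without 1 array, 66 to 212 probe sets were listed on every WT array and no mutant array, and 34 to 98 on every mutant array and no WT array. The cause of these changes was not tested. The 4 named probe sets passed the adjusted threshold only without normalization (1435064_a_at and 1432556_a_at), with the replicate block (1427371_at) or without WT replicate 3 (all 4), and their limma adjusted p ranged from 0.0120 to 0.742. Gene list counts, and means over several probe sets of 1 gene, could not be computed without gene names. Dim probe sets, those without a value on every array above all, limit what these arrays show.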

Other observations

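A few probe sets differed most within a genotype. The widest range among mutants belonged to a probe set at 13.46 and 13.44 on mutant replicates 3 and 5 and at 6.90 and 6.40 on mutant replicates 2 and 4. On WT replicates 1, 2 and 3 it stood at 7.06, 6.60 and 7.22, so only those 2 mutant arrays were high. Its difference of 3.09 (SE 1.70) was the largest of all in the direction of the mutants and had a limma adjusted p of 0.9999. The next widest stood at 13.62 on mutant replicate 2 and at 8.35, 8.63 and 9.32 on mutant replicates 3, 4 and 5, with 6.87, 9.85 and 7.93 in WT. Among WT arrays the widest range belonged to a probe set at 12.39, 6.69 and 10.60 on replicates 1, 2 and 3. It stood at 12.34, 12.49, 12.42 and 10.73 on mutant replicates 2, 3, 4 and 5. These probe sets were chosen after their values were seen.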
